A study of Mus musculus with 2 samples.

Results

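The Trim family is a large group of ubiquitin ligases, and 67 of the 23238 gene symbols in the counts belonged to it, chosen as every symbol that begins with Trim followed by a digit. Of these 67 genes, 36 had 50 or more reads in at least 1 of the 2 libraries, the read floor for the values described below. The study sequenced RNA from mouse bone marrow-derived dendritic cells, which are antigen-presenting cells grown from marrow with the cytokine GM-CSF. It had 1 control library and 1 library labelled UNE-C1, and both came from female C57BL/6 mice at 7 weeks of age. The cells grew in 20 ng/ml GM-CSF with a fresh supply on day 3, and the loosely attached and floating immature cells were taken on day 6. The protocol gives 100 nM UNE-C1 for 24 h; the sources used here do not give what the control culture received. UNE-C1, a part of the enzyme cysteinyl-tRNA synthetase, is known to bind the Toll-like receptors TLR2 and TLR6. Whether a library came from 1 mouse or from pooled marrow is not stated. With 1 library per group there was no replicate error and no test was possible. Every difference below is therefore between 2 libraries, and the 95% intervals (exact, Clopper-Pearson) cover counting error only.

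A TRIM protein carries a tripartite motif of a RING domain, 1 or more B-box domains and a coiled coil, followed by a carboxy-terminal part that sets its class. The RING domain recruits a ubiquitin-conjugating enzyme, so that most members attach ubiquitin chains to other proteins. In macrophages and dendritic cells many members are known to be induced by interferon, and several act on the RNA and DNA sensing pathways that lead to interferon production, either to promote or to restrain them. Members with a carboxy-terminal PRY-SPRY domain form the largest class, and this class holds the retroviral restriction factor TRIM5 of primates and its mouse relatives.

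Sequencing depth was 14857198 reads for the control and 15975821 for UNE-C1. Reads were taken near the 3' end of each transcript, so the read number of a gene does not scale with its length and levels of different genes were compared directly. Levels are given in CPM, read counts scaled to library size after TMM correction, and the log2 fold change is log2((CPM + 1)/(CPM + 1)), UNE-C1 over control. A gene was counted as higher or lower when this value was at least 1 in size, that is 2-fold. Dendritic cell markers were present in both libraries (10 of 10 past the floor, summed level 12558 and 12221 CPM, most of it from H2-Aa, H2-Ab1 and Cd74). Of these 10, Cd86 and Irf8 were at least 2-fold higher with UNE-C1 and Itgax, the gene for CD11c, was lower (12693 and 3493 reads). By contrast, 0 of 4 B cell markers and 0 of 6 T and NK cell markers passed the floor. All 9 measured neutrophil markers were lower by at least 2-fold with UNE-C1, with summed levels of 7877 CPM (control) and 3123 CPM (UNE-C1). Of 5 mast cell and eosinophil markers 3 were lower and none higher, and of 6 macrophage markers 2 were higher and 1 lower. Over all genes past the floor, 9.31% were at least 2-fold higher and 9.42% lower. Mcpt4, Pax5 and Cd3e had no read in either library. Markers of dendritic and other cells thus differed between the same 2 libraries as the Trim genes below, and their part in those differences was not tested. In such mixed cultures, fewer cells of a type and less RNA per cell cannot be told apart.

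The stretch before each gene start was searched for the core of the interferon-stimulated response element. This core was taken as GAAA, any 2 bases and GAAA again, or the same on the other strand (TTTC, any 2 bases, TTTC). The windows were the 250 bases before the start in RefSeq's promoter table (GRCm38.p6), which matched 25 of the 36 genes. Trim3, Trim8, Trim11, Trim14, Trim16, Trim29, Trim33, Trim35, Trim36, Trim43c and Trim65 were not matched. The motif was present before 4 of the 25 genes: Trim30a, Trim30d, Trim12c and Trim26. These 4 are 16% of the genes, beside 3.46% of all genes in the table and 3.59% of those past the read floor. By windows it was 4 of 34 for the Trim genes (11.8%), 2.98% of all 32851, and 2.94% for all genes past the floor. Among genes at least 2-fold higher it was in 2 of 10 Trim windows (20%) and in 8.6% of all windows. Among Trim genes changed under 2-fold it was in 2 of 23 windows (8.7%). Of the 4 genes, Trim30a and Trim30d were counted as higher with UNE-C1, and Trim12c and Trim26 were not. The 4 windows are printed 5′ to 3′ on the gene's own strand, with the motif in capitals. That of Trim30a is chr7:104465194-104465443 (minus strand), that of Trim30d chr7:104507850-104508099 (minus), that of Trim12c chr7:104353350-104353599 (minus) and that of Trim26 chr17:36836896-36837145 (plus).
Trim30a: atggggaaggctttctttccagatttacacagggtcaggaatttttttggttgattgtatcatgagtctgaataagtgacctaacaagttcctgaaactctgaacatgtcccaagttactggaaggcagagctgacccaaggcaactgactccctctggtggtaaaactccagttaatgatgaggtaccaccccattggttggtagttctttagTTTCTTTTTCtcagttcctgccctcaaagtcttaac
Trim30d: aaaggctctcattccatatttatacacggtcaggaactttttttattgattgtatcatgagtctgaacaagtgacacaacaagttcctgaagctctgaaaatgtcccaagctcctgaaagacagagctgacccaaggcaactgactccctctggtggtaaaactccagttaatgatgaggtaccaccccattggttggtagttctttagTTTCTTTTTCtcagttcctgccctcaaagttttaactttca
Trim12c: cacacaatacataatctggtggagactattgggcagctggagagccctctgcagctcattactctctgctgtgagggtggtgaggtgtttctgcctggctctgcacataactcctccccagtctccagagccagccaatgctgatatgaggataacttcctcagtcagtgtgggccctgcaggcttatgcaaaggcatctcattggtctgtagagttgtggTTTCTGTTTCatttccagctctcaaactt
Trim26: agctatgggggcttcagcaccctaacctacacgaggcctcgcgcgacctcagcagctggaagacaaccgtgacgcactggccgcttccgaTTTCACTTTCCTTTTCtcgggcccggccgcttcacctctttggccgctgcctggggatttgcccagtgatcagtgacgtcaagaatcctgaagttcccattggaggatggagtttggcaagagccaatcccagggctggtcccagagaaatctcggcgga

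Trim30a and Trim30d carried the same 10 letters, TTTCTTTTTC, starting at position -36 and -41 from the gene start. Their windows were alike over their whole length, with 227 of 255 alignment columns identical (89.0%). The other 44 pairs of windows among 10 Trim genes compared had 41.3% to 69.0% identity, and the highest of these was the pair Trim12a and Trim12c. These 2 windows are offset from each other, and their overhanging ends count as differences (200 of 290 columns identical). The 69.0% therefore understates how alike the shared stretch of Trim12a and Trim12c is. The motif of Trim12c started at -29, and the window of Trim26 held 2 overlapping copies, at -160 and -154. A second Trim30a window, at a start 19.1 kb inside the gene, had no copy. No copy was found before Trim6, Trim12a, Trim21, Trim25, Trim34a or Trim56, which says only that these letters are not in these windows. The window of Trim12a stopped short of its GENCODE gene start. The place that matches the motif of Trim12c lies beyond the end of that window and was not examined. The window of Trim30b lay at a start 11.2 kb inside its GENCODE gene, so the stretch before the outer start was not examined. The letters of a GAS element, TTCNNNGAA on either strand, were in 0 of the 34 windows of the 25 genes. They were in 7.02% of all windows of the table and in 5.72% of those of all genes past the floor.

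Of the 36 genes past the floor, 10 were higher by at least 2-fold with UNE-C1 (27.8%; 9.31% of all 10469 genes past the same floor). Only 2 were at least 2-fold lower (5.56%; 9.42% of all genes). The 10 were Trim30b, Trim30d, Trim30a, Trim6, Trim21, Trim34a, Trim25, Trim43c, Trim12a and Trim56, and the 2 were Trim36 and Trim47. The median log2 fold change of the 36 was 0.12, beside -0.00 over all genes, and 20 genes were above 0 and 16 below. For 7 of the 36 the counting interval of the ratio held 1. Trim43c passed the floor in the UNE-C1 library only, and Trim16, Trim47, Trim65 and Trim68 in the control only. Passing in 1 library alone largely set the direction in which these 5 differed.

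**Figure D1:**
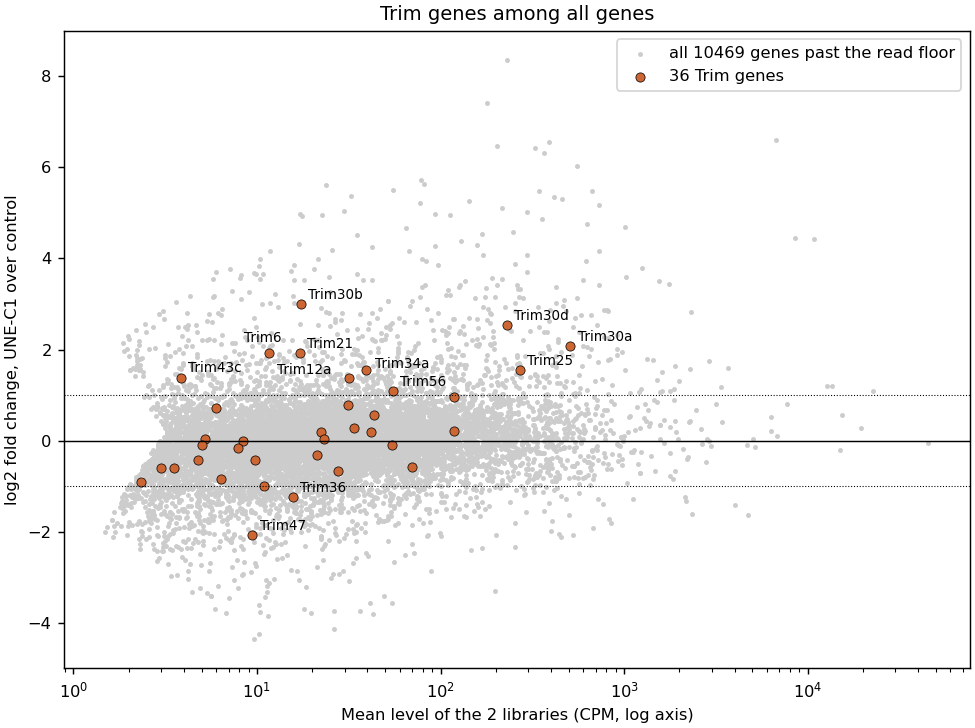
Log2 fold change (UNE-C1 over control) against the mean level of the 2 libraries in CPM on a log axis, for 10469 genes (grey) and the 36 Trim genes (orange); dotted lines mark 2-fold. Trim30a, Trim30d and Trim25 lie among well-expressed genes, and Trim36 and Trim47 are the Trim genes under the lower dotted line.

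Of the family's log2 fold changes, those of Trim30b, Trim30d and Trim30a came first, although the plain ratio of Trim6 was above that of Trim30a and, with a pseudocount of 0.1, so was its log2 fold change (2.14 against 2.08). Trim30a, whose product is known to restrain Toll-like receptor signalling by removing TAB2 and TAB3, was the most abundant Trim transcript of both libraries, with 3258 control reads (195 CPM) and 11708 UNE-C1 reads (825 CPM). Its ratio was 4.24 (interval 4.08 to 4.41). Its neighbour Trim30d had 1123 and 5587 reads (67.1 and 394 CPM), 5.87-fold higher (5.50 to 6.26). Trim30b had only 52 and 449 reads (3.11 and 31.7 CPM). Its 10.2-fold difference (7.63 to 13.8) was the largest among the Trim genes past the floor. By log2 fold change (2.99), Trim30b was at rank 123 of the 10469 genes. All 3 genes were thus several times higher, at levels far apart from each other. Transcripts of these genes are alike: of 50-base stretches in the last 500 bases of Trim30d's coding transcripts, 16.9% also occur in Trim30a or Trim30c, whereas none of those of Trim30a or Trim30b occur in another gene. Reads of Trim30d can thus not be fully told from those of its copies, and Trim30c was not analysed here.

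Trim5-like genes were less alike. Trim12a and Trim12c are mouse relatives of primate TRIM5. Trim12a had 288 and 658 reads (17.2 and 46.4 CPM), 2.70-fold higher (2.34 to 3.11). Trim12c, the more abundant one in the control at 35.0 CPM, reached 52.2 CPM in the UNE-C1 library on 586 and 741 reads. The interval of its ratio of 1.49 (1.34 to 1.67) did not overlap that of Trim12a. The transcript ends of Trim12c shared 17.8% of their stretches with other genes, Trim5 among them, while those of Trim12a shared none. Trim34a, another member of the PRY-SPRY class, had 324 and 837 reads (3.05-fold higher, 2.68 to 3.48). Its near copy Trim34b had only 3 and 11 reads, and the pair shared 22.2% of the stretches of Trim34a. Trim6, which is known to build free ubiquitin chains that activate the kinase IKK epsilon, had 71 and 270 reads, a ratio of 4.49 (3.44 to 5.91).

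These genes are neighbours. Between the start of Trim6 and the end of Trim30e-ps1 on chromosome 7 (104218793 to 104535361 of GRCm38, 317 kb), 9 Trim symbols of the counts lie in 1 run, of which 7 passed the floor and 6 of the 7 were counted as higher. Trim12c was the exception. The median of the 7 was 1.93. Elsewhere, the 29 Trim genes past the floor had a median of -0.10, with 4 higher (13.8%) and 2 lower (6.9%). Of all genes past the floor, 9.31% were higher and 9.42% lower. Among the Trim symbols of the counts, the order from Trim6 runs Trim34a, Trim12a, Trim34b, Trim12c, Trim30b, Trim30a, Trim30d and Trim30e-ps1. Trim12c, with the smallest difference past the floor, thus stands beside Trim30b, with the largest. Trim5, between Trim34a and Trim12a, and Trim30c, between Trim30b and Trim30a, were not analysed here. One gene of the stretch that is not a Trim gene passed the floor, the antisense transcript Gm15133 next to Trim12a, with 10 and 54 reads (log2 fold change 1.59). Trim21 and Trim68 lie on the same chromosome outside this run, at 102557921 to 102565486 and 102677582 to 102687327, and differed in opposite directions. Trim21 was higher on 110 and 393 reads, and Trim68 had 56 and 19 reads.

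**Figure D2:**
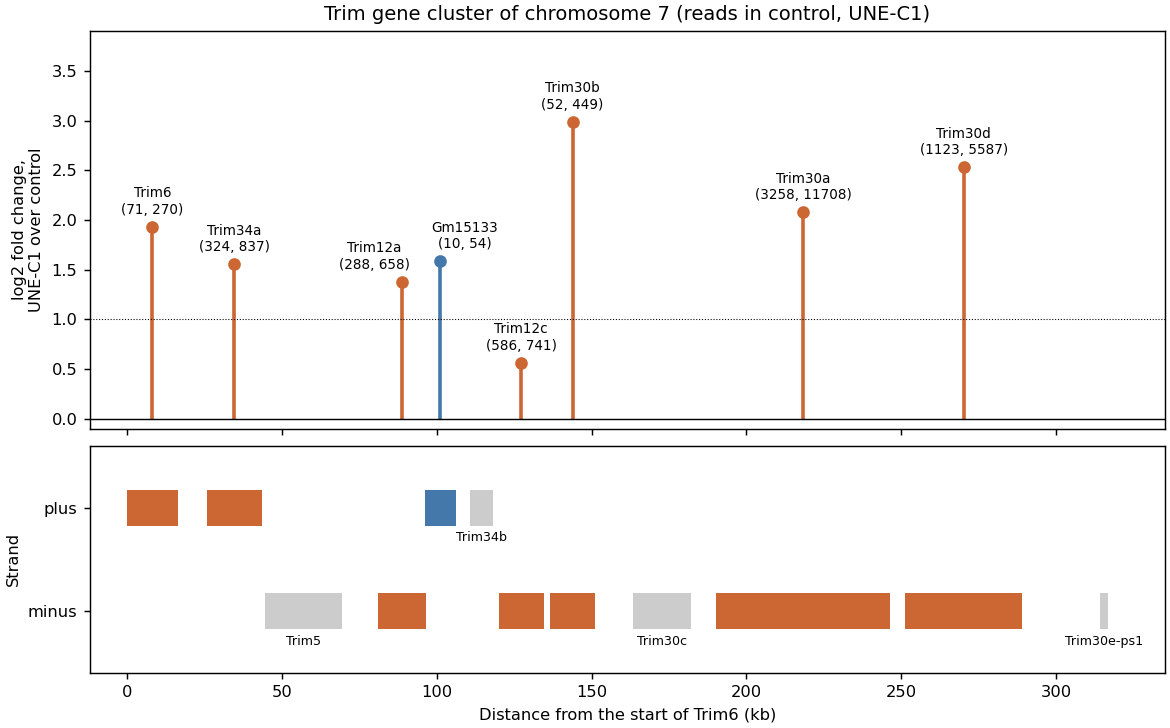
Upper panel: log2 fold change (UNE-C1 over control) of the genes past the read floor in the chromosome 7 run, with reads in the control and UNE-C1 libraries in brackets and a dotted line at 2-fold. Lower panel: extent and strand of each gene in kb from the start of Trim6 (orange, Trim genes past the floor; blue, Gm15133; grey, genes below the floor or not analysed). Trim12c, at 0.56, lies between Trim12a at 1.38 and Trim30b at 2.99.

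Among the other members that act in sensing pathways, Trim25 was the second most abundant. It encodes the ligase that modifies the RNA sensor RIG-I and that can also attach ISG15. Trim25 lies on chromosome 11 from 88999376 to 89020293 and had 2302 control reads (138 CPM) and 5711 UNE-C1 reads (403 CPM), a ratio of 2.93 (2.79 to 3.07). Trim21, the cytosolic receptor for antibody bound to entering viruses, went from 6.57 to 27.7 CPM, 4.21-fold higher (3.40 to 5.26). Trim56, a ligase linked to the DNA sensing adaptor STING, had 582 and 1064 reads, 2.16-fold higher (1.95 to 2.39), and its call was lost when total counts were used for scaling.

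Trim14, which has no RING domain and acts as an adaptor at the mitochondrial protein MAVS, stood just under the threshold, at a log2 fold change of 0.97. It had 1342 and 2235 reads, a ratio of 1.96 (1.84 to 2.10). Its exons share 1356 bases with Nans on the opposite strand, which had 934 and 500 reads, and since the strand setting of the counting is not given, reads of the pair cannot be told apart. Trim26, which is known to act on IRF3, had 381 and 570 reads (1.76-fold higher, 1.55 to 2.01). Trim38, known as a brake on Toll-like receptor signalling, was almost without reads, with 1 and 0.

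The members known from textbook knowledge to be induced by interferon were written as a list of 15 symbols, of which 13 were in the counts and 11 past the floor. All 11 were above 0, 8 of them by 2-fold or more (72.7%), and the median was 1.54. The values ran from 0.56 for Trim12c to 2.99 for Trim30b. Of the 25 other Trim genes past the floor, 2 were higher (Trim6 and Trim43c) and 2 lower, 8% each, which is near the share of all genes, and their median was -0.16. The list was written with earlier results of these data known, so it is no independent evidence of the direction.

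**Figure D3:**
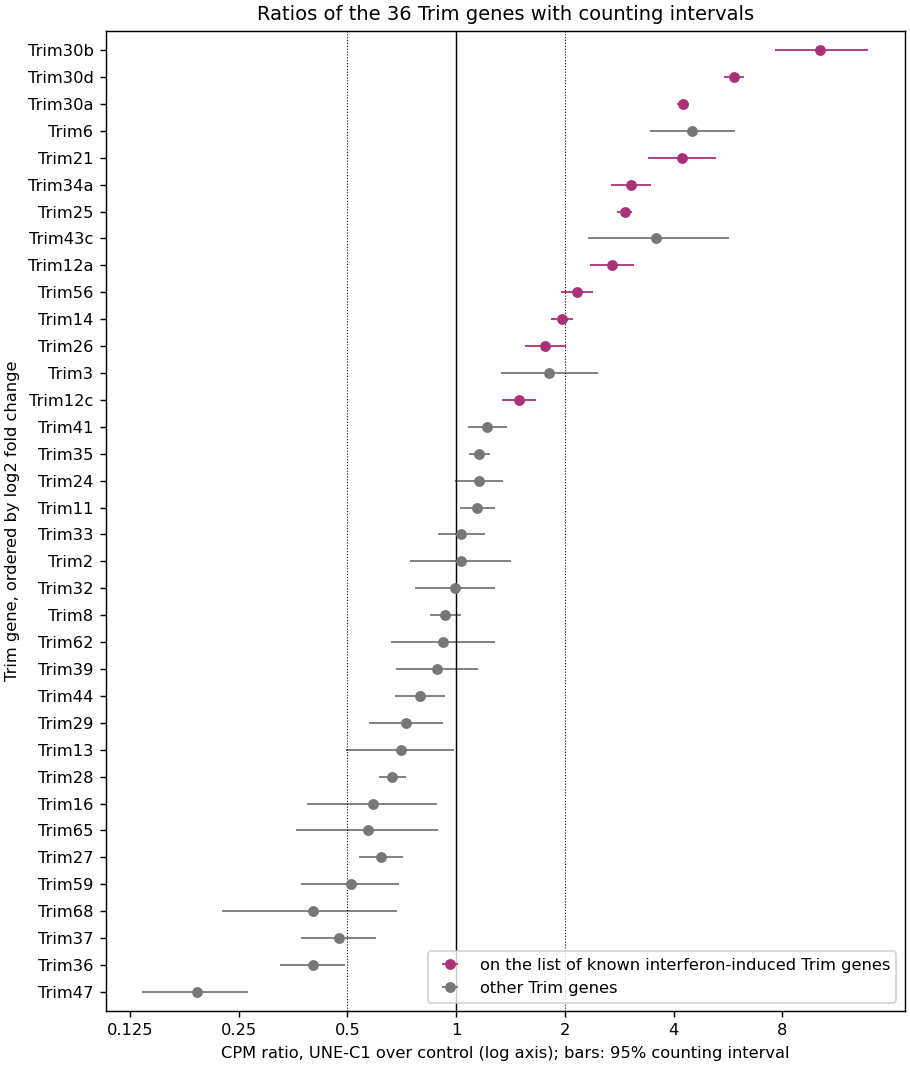
CPM ratio, UNE-C1 over control, on a log axis for the 36 Trim genes, with 95% counting intervals as bars and dotted lines at 2-fold higher and lower; the genes are ordered by log2 fold change, which holds back genes with few reads. All 11 genes of the interferon-induced list (purple) lie right of 1, and the intervals are widest for genes with few reads such as Trim68 and Trim43c.

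Trim47 was the lowest of the family. It is a PRY-SPRY member on chromosome 11 (116105752 to 116127210), with 265 control reads (15.8 CPM) and 43 UNE-C1 reads (3.03 CPM), 5.22-fold lower (3.77 to 7.39). The neighbouring Trim65, which encodes a ligase for the RNA sensor MDA5, shares 225 exonic bases with it on the same strand and had 64 and 31 reads (1.75-fold lower, 1.12 to 2.78). No stretch of their transcript ends is shared. Trim36, a microtubule-binding member with a COS and a SPRY domain, had 374 and 127 reads (22.4 and 8.95 CPM), 2.50-fold lower (2.04 to 3.08). Its call was lost with a pseudocount of 5.

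A further group lay below 0 without being counted as 2-fold lower. Trim37, the MATH domain ligase found at centrosomes and peroxisomes, was next to the threshold at -0.98, with 249 and 100 reads (2.11-fold lower, 1.67 to 2.69). Trim68 had a plain ratio 2.50-fold lower (1.46 to 4.45), but its log2 fold change of -0.89 was held back by the pseudocount. Trim59, which has a transmembrane segment, had 141 and 61 reads (1.96-fold lower, 1.44 to 2.69). Trim13, the other transmembrane member, which sits in the endoplasmic reticulum, had 94 and 56 reads (1.42-fold lower, 1.01 to 2.02). Trim27, a nuclear and cytoplasmic ligase, had 572 and 301 reads (1.61-fold lower, 1.40 to 1.86). Trim16, which lacks a RING domain, had 74 and 37 reads (1.70-fold lower, 1.13 to 2.59) and shares 21.1% of its transcript-end stretches with Fbxw10. Trim44 and Trim29, which also lack a RING domain, stood at -0.32 and -0.41. With total counts in place of TMM scaling, Trim37, Trim59 and Trim68 joined the genes counted as lower.

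The TIF1 proteins, chromatin-bound members with a PHD finger and a bromodomain, differed by less than 2-fold. Trim28, also called KAP1, is the corepressor of KRAB zinc finger proteins and silences endogenous retroviruses. It had 1407 control reads (84.1 CPM) and 795 UNE-C1 reads (56.0 CPM), 1.50-fold lower (1.37 to 1.64). Trim24 had 347 and 341 reads, a ratio of 1.16 (0.995 to 1.35), and Trim33, a regulator of SMAD signalling, had 380 and 333 reads, a ratio of 1.03 (0.890 to 1.20). Both ratios were under 1 with total counts, and that of Trim33 also with upper-quartile factors. Trim66 had no read in either library. Of 16 partner genes of this class, none was at least 2-fold higher and 2 were lower (12.5%, beside 9.42% of all genes; median 0.02), the heterochromatin protein Cbx5 (1301 and 405 reads) and the deacetylase Hdac2 (489 and 165 reads).

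Another 9 genes past the floor were not counted as higher or lower. Trim35 was at 110 and 127 CPM, a ratio of 1.16 (1.09 to 1.24). Trim8, which is known to modify the kinase TAK1, was at 56.5 and 52.8 CPM (ratio 0.934, 0.848 to 1.03). Trim11 and Trim41 had ratios of 1.14 and 1.22, and like Trim35 and Trim2 they turned below 0 with total counts. Trim41 shares 31 exonic bases with the opposite-strand gene Rack1, which had 9648 and 4007 reads under its older symbol Gnb2l1. Of the NHL repeat members, Trim3 had the widest difference, with 71 and 109 reads (1.81-fold higher, 1.33 to 2.48). Trim2 had 86 and 75 reads, and Trim32, the ligase mutated in a limb-girdle muscular dystrophy, 140 and 118 reads. Trim32 lay at -0.01 and turned above 0 with median-of-ratios factors. Trim39 (140 and 105 reads) and Trim62 (87 and 68 reads) had intervals that held 1.

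By class, 22 of the 36 genes past the floor were PRY-SPRY genes, with a median of 0.68. They held 1 of the 2 genes that were lower (4.55% of the 22, beside 9.42% of all genes). The other one lower, Trim36, also has a SPRY domain but was put in a separate class, COS-FN3-SPRY. The 22 PRY-SPRY genes also held 9 of the 10 that were at least 2-fold higher (40.9%, beside 9.31% of all genes). The other one higher, Trim56, has no further carboxy-terminal domain. Without the interferon-induced list, the 12 PRY-SPRY genes left had a median of -0.13, with 2 higher (16.7%) and 1 lower (8.33%). The 3 PHD-bromodomain and 3 NHL genes had no member counted as higher or lower, with medians of 0.05 and 0.03, and both transmembrane genes were below 0 (median -0.62).

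**Figure D4:**
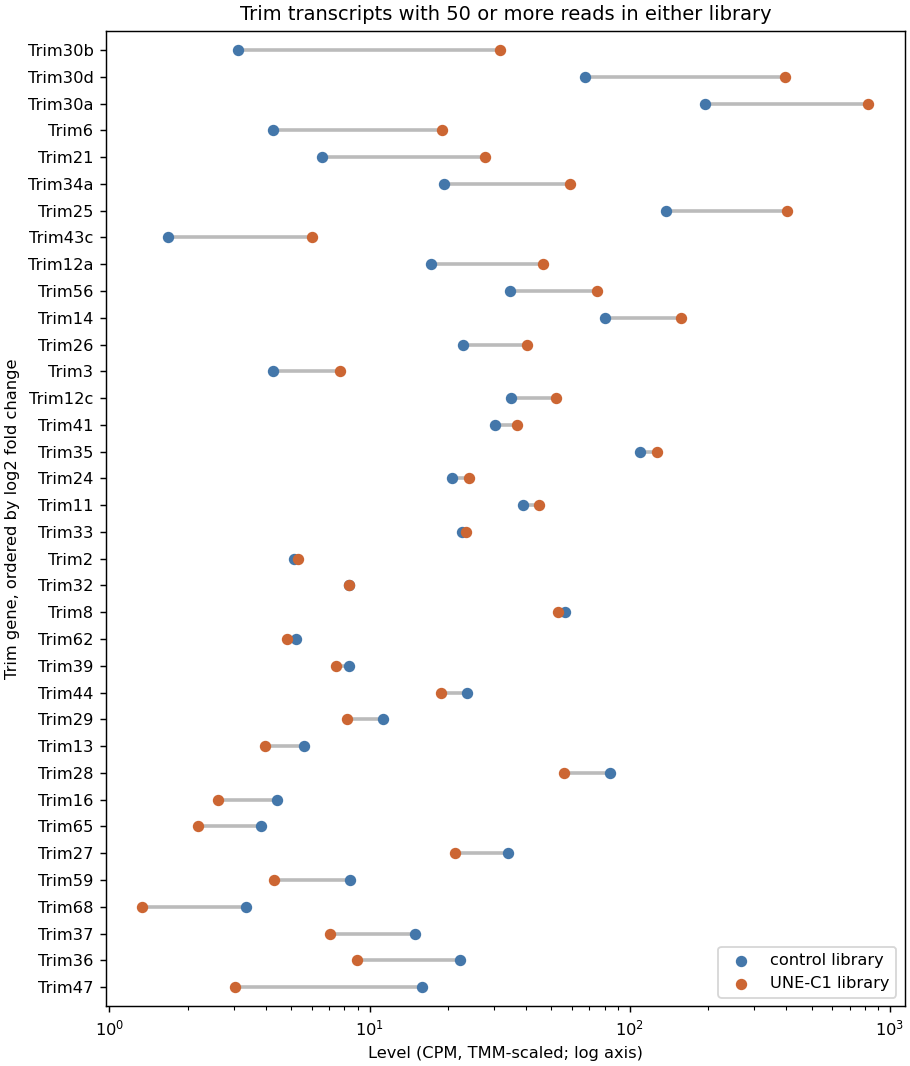
Level of each of the 36 Trim genes past the read floor in the control (blue) and UNE-C1 (orange) library, in CPM on a log axis, ordered by log2 fold change; each point is 1 library. Trim30a is highest in both libraries, at 195 and 825 CPM, and Trim47 shows the widest gap towards lower values.

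Fewer genes held most of the Trim reads in the UNE-C1 library. All Trim members together held 19597 control reads (0.132% of the library) and 37238 UNE-C1 reads (0.233%), and the summed level was 2.24-fold higher (2.20 to 2.28), from 1171 to 2625 CPM. Trim30a, Trim30d and Trim25, the 3 most abundant in the UNE-C1 library and chosen for that, took 34.1% of these reads without UNE-C1 (33.4 to 34.8%) and 61.8% with it (61.3 to 62.3%). The 3 most abundant of the control, Trim30a, Trim25 and Trim35, took 37.7% and 51.6%. Trim30a alone went from 16.6% to 31.4%. All Trim members other than Trim30a, Trim30d and Trim25 had a summed level 1.30-fold higher (1.27 to 1.33). Without TMM scaling, however, these other members took nearly equal shares of the libraries, 0.0869% and 0.0891%. The chromosome 7 run held 29.1% and 54.4% of the Trim reads. The PHD-bromodomain genes went from 10.9% to 3.95% of them, while their own summed reads were 2134 and 1469.

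**Figure D5:**
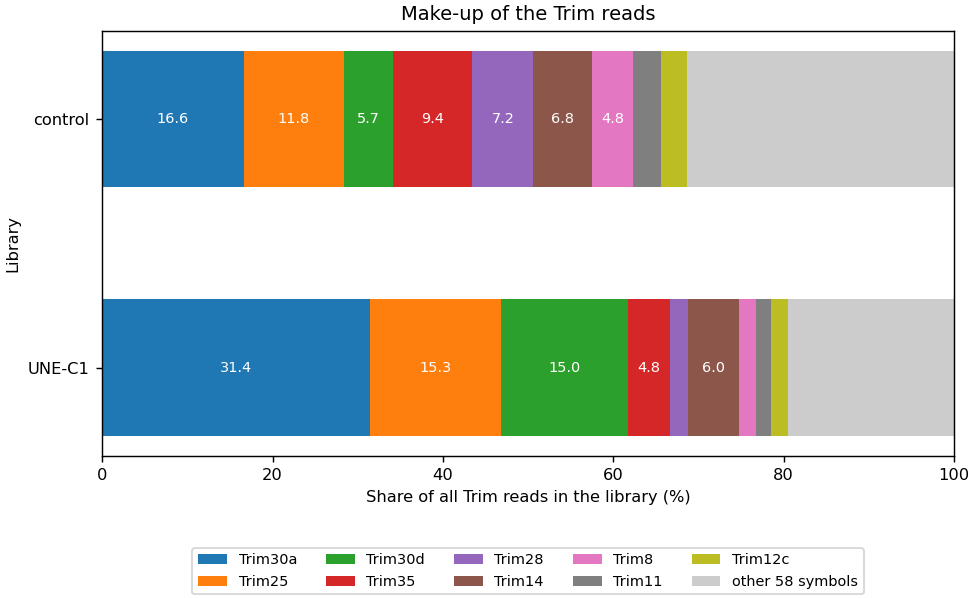
Share of all Trim reads (%) that each of the 9 most abundant members took in the control and UNE-C1 libraries, with the other 58 symbols in grey. Trim30a, Trim25 and Trim30d widen from 34.1% to 61.8% together, and Trim35, Trim28 and Trim8 narrow.

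Of the 31 members below the floor, 14 had no read in either library, 8 had fewer than 10 reads in both, and 9 had 10 or more in at least 1. A count of 0 allows up to 3 reads, or 0.179 CPM (control) and 0.211 CPM (UNE-C1). The 14 were Trim10, Trim15, Trim31, Trim40, Trim42, Trim50, Trim52, Trim54, Trim58, Trim60, Trim61, Trim63, Trim66 and Trim80. They include the muscle genes Trim54 and Trim63 and the erythroid gene Trim58. Trim10, Trim15, Trim31 and Trim40 lie beside Trim26 on chromosome 17, so that Trim26 was the only one of these 5 neighbours with reads. The nearest below the floor were Trim46 (3 and 30 reads) and Trim23, the member with an ARF GTPase domain (23 and 4 reads). The nearest above were Trim68 (56 and 19 reads), Trim65 (64 and 31) and Trim16 (74 and 37). Trim45 had 13 reads in each library, Trim9 14 and 6, Trim7 12 and 5, and Trim72 0 and 10. The members with fewer than 10 reads were Trim17, Trim30e-ps1, Trim38, Trim55, Trim67, Trim69, Trim71 and Trim75.

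The Trim43 genes, known from early embryos, all had more reads in the UNE-C1 library. Trim43c had 28 and 85 reads (1.67 and 5.99 CPM), 3.58-fold higher (2.31 to 5.70), Trim43a 0 and 17, and Trim43b 1 and 14. The 3 genes lie on chromosome 9 between 88580891 and 89092835 and are near copies: 35% of the transcript-end stretches of Trim43c occur in Trim43a or Trim43b. Trim43c also shares 768 exonic bases with 9330159M07Rik on the opposite strand, which had 96 and 208 reads. Reads of Trim43c can thus not be fully told from those of its copies. Nor can they be told from those of 9330159M07Rik without the strand setting. The call of Trim43c was lost with a pseudocount of 5.

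Genes that work with TRIM proteins were read from fixed lists. Of the TRIM proteins that carry another symbol, Pml was 3.34-fold higher (3.07 to 3.63; 773 and 2187 reads), Mid1, a microtubule-bound member, was lower on 52 and 14 reads, and Mefv, which encodes pyrin, had 248 and 326 reads. Of 10 genes of PML nuclear bodies 5 were at least 2-fold higher (50%, beside 9.31% of all genes) and none lower (median 0.97): Pml itself, Sp100, Daxx, Sp110 and Sp140, with log2 fold changes of 1.72, 1.48, 2.12, 2.42 and 2.48. The small modifiers Sumo2 and Sumo3 stood at -0.22 and 0.05. Of 12 ubiquitin-conjugating enzymes past the floor, 1 was higher (8.33%, near the share of all genes) and none lower (median 0.23). That gene was Ube2l6, the conjugating enzyme for ISG15, with 544 and 2683 reads (5.82-fold, 5.30 to 6.39). The other 11 ran from -0.60 for Ube2v2 to 0.89 for Ube2v1, both partners of Ube2n, which stood at 0.40. Of 18 signalling proteins that TRIM ligases bind or modify, 5 were at least 2-fold higher (27.8%, beside 9.31% of all genes). None was lower (beside 9.42% of all genes), and the median was 0.38. The 5 were Irf7, Ifih1, Ddx58, Irf8 and Traf6, among which Ddx58, the gene for RIG-I, went from 58.9 to 255 CPM. Its ratio of 4.34 (4.04 to 4.66) was above that of Trim25. Mavs and Irf3 stood at -0.08 and -0.19, Tab2 and Tab3, the targets of Trim30a, at 0.21 and 0.16, and Tmem173, the gene for STING, at -0.51.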

How the data were processed

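Each of the 2 deposited files gives raw read counts for 1 library by gene symbol, with no normalization by the authors, as read from the values. Libraries were made with a QuantSeq kit from 500 ng of total RNA, per the labels' protocols. Bowtie2, edgeR and the build mm10 are listed, per the submitters' processing notes, without versions. Not given in the sources used here are the counting tool, annotation, strand setting and handling of multiply mapped reads. Repeated symbols (35, in 79 of 23282 entries) were summed. Counts were scaled by TMM (edgeR 4.0.16, R 4.3.3; factors 1.13 and 0.888). Intervals are conditional binomial (scipy 1.17.1). No p-value was computed. The code was tested on simulated data. Positions and overlaps are from GENCODE M21 (GRCm38, also called mm10), and the 50-base stretches from its transcripts. Windows were compared by global alignment. All Trim symbols with 50 or more reads are named, and of partner lists the genes with the largest differences; the other partner genes were picked after their values were seen. The members and lists were chosen with earlier results of these data known. Alternatives were total counts, median-of-ratios (the DESeq2 rule) and upper-quartile factors, pseudocounts of 0.1 and 5, no floor, a floor of 200, and leaving out Rn45s. Some results are not reported here.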

Additional observations from a re-analysis of the deposited data

How the results depend on the processing

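The number of genes at least 2-fold higher, 10, was between 9 and 12 under the 8 alternatives. Over all genes, the share at least 2-fold higher ran from 6.28% (total counts) to 10.1% (200-read floor) under the same alternatives. The number at least 2-fold lower moved from 2 to 5 with total counts, to 4 with a pseudocount of 0.1 and to 1 with a pseudocount of 5. The share of all genes that was lower moved too, from 9.42% to 16.2%, 11.0% and 4.62% in the same order. The median of the family, 0.12, was -0.20 with total counts, which moved the median of all genes to -0.33. It was 0.13 with median-of-ratios factors, 0.032 with upper-quartile factors, 0.11 with a pseudocount of 5, 0.10 with no floor and 0.42 with a 200-read floor (24 members). The ratio of the summed level, 2.24, was 1.77 with total counts and 2.11 with upper-quartile factors. With total counts 657 of all genes were higher and 1693 lower, against 975 and 986. No gene counted as higher or lower turned its direction under any of these settings. No paired analysis was possible because each group has 1 library. Depth limits the members with few reads: the floor of 50 reads is 2.99 CPM (control) and 3.52 CPM (UNE-C1).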
